A study of Mus musculus with 6 samples.

Results

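The 8 genes described here encode inducible oxidases and secreted or membrane-bound defence proteins of the gut lining: Duox2, Duoxa2, Nox1, Nos2, Lcn2, Pglyrp1, Slpi and Pigr. They were chosen by symbol, and every probe set that the platform annotation pairs with one of them was taken. Of the 8 genes, 6 had a probe set, and these 6 genes had 7 probe sets among the 34945 that the annotation pairs with a single gene, or 6 of 18193 genes. Duox2 and Nox1, the 2 NADPH oxidases proper, were paired with no probe set and have no value here. The oxidase side of the group therefore rests on Duoxa2, the partner of Duox2, and on Nos2, which makes nitric oxide and is not an NADPH oxidase.

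The values come from intestinal epithelial cells of C57BL/6 mice, with 1 array per animal and 3 animals per group. All 6 animals carried the floxed casp8 gene. The 3 floxed controls were villinCre negative, and the 3 caspase-8 deficient animals were villinCre positive, so that Cre recombinase, driven by the villin promoter of the gut epithelium, removes the floxed part of the gene there. Caspase-8 starts apoptosis from death receptors and restrains necroptosis. The labels give no age, no sex and no gut segment, and no treatment was applied. The series asks what the loss of caspase-8 in the epithelium does to gene expression, and for these genes the question is whether the deficient epithelium carries more or less of its inducible chemical and antimicrobial defence.

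The gut epithelium makes reactive oxygen and nitrogen at its surface and releases proteins that bind, starve or neutralise microbes. DUOX2 is a membrane oxidase that releases hydrogen peroxide into the lumen, and it leaves the endoplasmic reticulum only with its maturation factor DUOXA2. NOX1 makes superoxide and needs the partners NOXO1, NOXA1 and p22phox. Inducible nitric oxide synthase, encoded by Nos2, turns arginine into nitric oxide and needs tetrahydrobiopterin. Lipocalin-2 (Lcn2) takes bacterial siderophores away, PGLYRP1 binds peptidoglycan, SLPI inhibits neutrophil elastase and other serine proteases, and PIGR carries dimeric IgA from the tissue side to the lumen. In the inflamed gut several of these genes are known to be switched on by NF-kB, interferon or interleukin-17 and interleukin-22 signals.

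RefSeq (build GRCm38.p6) holds a start-site window of 250 bases before and 50 after the start for 7 of the 8 genes; Nos2 had no entry. Duox2 and Duoxa2 are neighbours on opposite strands, with 673 bases between their starts in that table. Since the annotation pairs no probe set with Duox2, only Duoxa2 of this pair has a value, and whether Duox2 follows it was not measured. The windows of this pair are shown because the genes are neighbours, and that of Pglyrp1 because it had the smallest p-value among the measured members. Capitals mark matches to any of 6 motifs searched on both strands. They are the TATA box as TATAAA, the E-box as CACGTG, an AP-1 type motif as TGANTCA, a STAT type motif as TTCNNNGAA, an interferon response type motif of 2 GAAA blocks set 2 bases apart, and the NF-kB consensus by name. Each is written 5′ to 3′ on the gene's own strand.
Duox2, chr2:122298178-122298477, minus strand: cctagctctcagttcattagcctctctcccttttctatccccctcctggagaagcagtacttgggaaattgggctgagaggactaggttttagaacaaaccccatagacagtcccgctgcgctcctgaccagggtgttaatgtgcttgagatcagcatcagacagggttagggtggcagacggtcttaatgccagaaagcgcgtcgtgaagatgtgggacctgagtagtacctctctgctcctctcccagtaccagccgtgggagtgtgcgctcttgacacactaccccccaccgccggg
Duoxa2, chr2:122298650-122298949, plus strand: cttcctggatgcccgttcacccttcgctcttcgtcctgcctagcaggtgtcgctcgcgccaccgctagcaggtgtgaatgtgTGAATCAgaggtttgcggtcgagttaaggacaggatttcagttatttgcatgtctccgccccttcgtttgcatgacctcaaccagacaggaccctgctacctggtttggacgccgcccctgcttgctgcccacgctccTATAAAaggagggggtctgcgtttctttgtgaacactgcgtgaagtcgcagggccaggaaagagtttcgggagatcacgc
Pglyrp1, chr7:18884440-18884739, plus strand: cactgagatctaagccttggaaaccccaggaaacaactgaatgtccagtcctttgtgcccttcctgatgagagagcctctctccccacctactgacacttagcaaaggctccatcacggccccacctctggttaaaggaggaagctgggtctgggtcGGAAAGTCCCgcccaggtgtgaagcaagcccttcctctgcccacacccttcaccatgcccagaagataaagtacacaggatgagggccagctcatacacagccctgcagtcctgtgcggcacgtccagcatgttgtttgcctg
No capital stands in the Duox2 window, which says only that these letters are not in it. The Duoxa2 window held TATAAA at −30 to −25 and TGANTCA at −168 to −162, counted from the start. Of 32851 windows of the same length, 13.6% held TATAAA and 7.8% held TGANTCA. The Pglyrp1 window held the NF-kB consensus, read on the other strand, at −93 to −84. That motif stood in 8.5% of all windows. The matches are descriptions of sequence, and no binding was measured.

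The arrays were alike in scale, with medians of 4.85 to 4.91 on the log2 scale over all probe sets. A measure of RNA degradation, the log2 signal at the 3′ end of Gapdh less that at its 5′ end, stood at 0.68 (replicate 1) and 0.93 (replicate 2) for 2 of the controls. On the other 4 arrays it was 0.21 to 0.29. High values thus occurred only among controls, so this measure and the group cannot be fully told apart. A fit with it as a covariate compares the deficient arrays mainly with control replicate 3. Leaving out control replicates 1 and 2 does the same, so these settings are not separate checks. Deficient replicate 1 stood apart in the 9 measured endothelial markers, whose mean lay 2.61 above the control mean on that array and between −0.27 and 0.17 on the others. All 10 epithelial markers were measured, and their mean level was 12.2 to 12.3 among controls against 12.3 to 12.4 in the deficient arrays, high on every array. Casp8 read 10.53, 9.74 and 10.24 among controls against 9.27, 9.56 and 10.40 in the deficient animals; its 1 probe set did not pass (limma, adjusted p = 0.518), and since the labels do not say which exons are removed it cannot check the genotypes.

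None of the 6 measured genes passed the test between the groups. In limma, with p-values adjusted by Benjamini-Hochberg over 18193 genes, 0 of 6 had an adjusted p under 0.05, where 0.775% of all genes did. At an unadjusted p under 0.05 there were 3 of the 6, against 16.6% of all genes. Those were Pglyrp1 and Duoxa2, which read lower in the deficient animals (2 of 6, against 8.53% of all genes), and Nos2, which read higher (1 of 6, against 8.12%). The groups did not overlap in 2 of 6 genes, Pglyrp1 and Nos2, against 22.7% of all genes (11.2% lower and 11.5% higher). The difference was negative in 4 of 6 genes, against 46.1% of all genes. Tested as probe sets, 0 of 7 passed, against 0.398% of 34945, 3 of 7 had an unadjusted p under 0.05, against 15.3%, and the groups did not overlap in 3 of 7, against 21.1%.

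**Figure D1:**
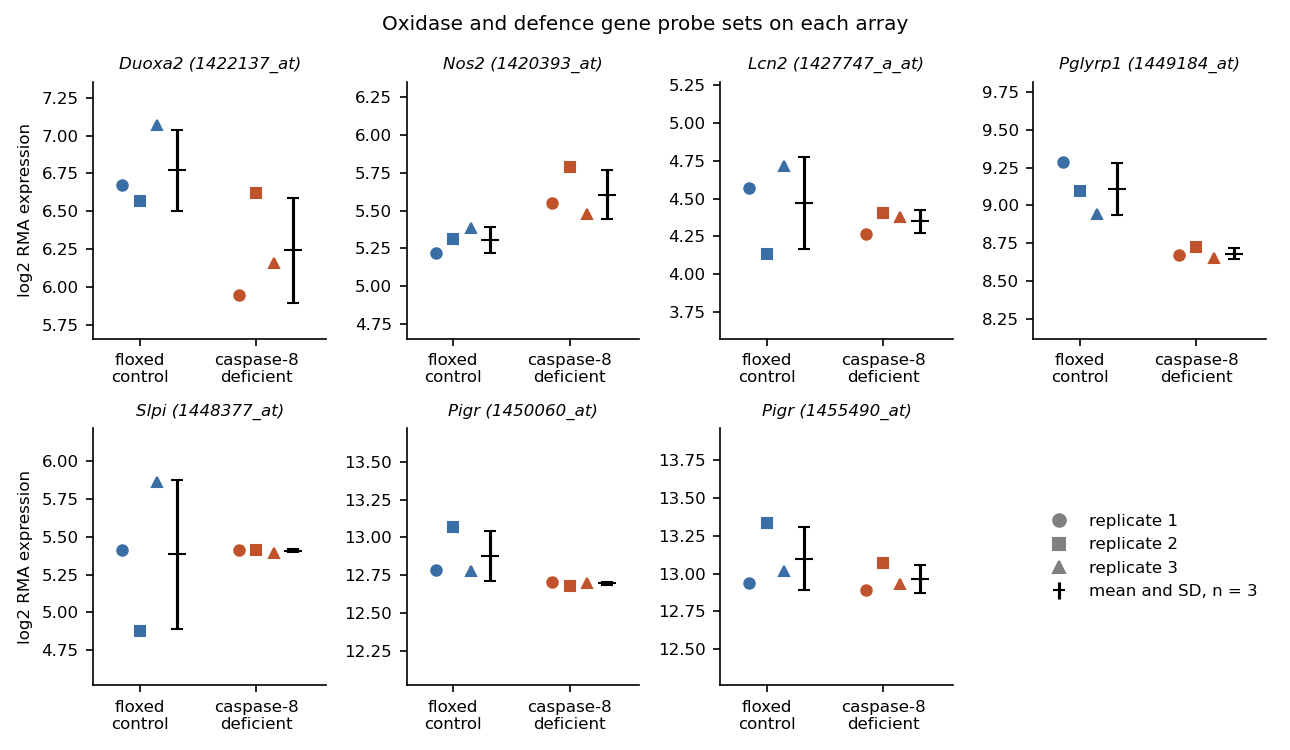
Log2 RMA expression of each of the 7 probe sets on the 6 arrays, with floxed controls in blue, caspase-8 deficient animals in orange, a symbol for each replicate number, and the mean and SD of 3 arrays in black; every panel spans the same number of log2 units but starts at its own level. The controls lie above all deficient arrays for Pglyrp1 and for the dimmer Pigr probe set (the first of its 2 panels). For Nos2 the controls lie below all deficient arrays. For Slpi the controls run from 4.88 to 5.86 while the deficient arrays stay near 5.4.

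Duoxa2, the maturation factor that DUOX2 needs to reach the cell surface, read 6.67, 6.57 and 7.07 among controls against 5.94, 6.62 and 6.16 in the deficient animals. Deficient replicates 1 and 3 lay below every control, while deficient replicate 2 lay just above control replicate 2, so the groups overlapped. The mean was 6.77 ± 0.27 among controls against 6.24 ± 0.35 in the deficient animals (SD, n = 3). Deficient minus control was −0.53 on the log2 scale (SE 0.21, 95% confidence limits −1.004 and −0.05), a 1.44-fold lower level, and did not pass (limma, adjusted p = 0.257). It was −0.83 with the Gapdh difference as a covariate, where it did not pass (limma, adjusted p = 0.398). Without control replicates 1 and 2, which makes much the same comparison, it was also −0.83. With array weights it was smaller, at −0.31 (adjusted p = 0.294), and without single arrays it ran from −0.72 to −0.38. In these bulk samples, fewer cells that express a gene and less RNA per cell cannot be told apart.

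The other genes of the NADPH oxidase family and its subunits were followed as a list of 13 without the members, of which 10 were measured. Of these 10, 0 rose, 0 fell and 10 did not pass (1 at an unadjusted p under 0.05). The median log2 difference was −0.15, beside 0.022 over all genes. Duox1, the paralogue of Duox2, had the smallest p: it read 3.75, 3.76 and 3.75 among controls against 4.24, 4.19 and 4.05 in the deficient animals. Its groups did not overlap, but the log2 difference of 0.41 (SE 0.11) did not pass (limma, adjusted p = 0.135), and its values lay below the array medians throughout. Duoxa1, the maturation factor of DUOX1, read 4.57, 4.92 and 4.61 in the controls and between 4.57 and 4.63 in the deficient animals. For NOX1 itself only partners were measured. Noxo1, its organiser subunit, read 9.62, 9.74 and 9.64 among controls against 9.31, 9.42 and 9.68 in the deficient animals, with deficient replicate 3 inside the control range (log2 −0.19, limma adjusted p = 0.492). Cyba, which encodes p22phox, differed by 0.074 (adjusted p = 0.801).

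By the likeness measure used here, the root-mean-square difference between log2 profiles after each gene's mean over the 6 arrays is subtracted, the genes nearest to Duoxa2 were Xbp1, Cobll1 and AA467197. The distances were 0.14, 0.14 and 0.15 log2 units over 6 arrays, among 9096 genes with a mean above that of the median gene. Xbp1, a transcription factor of the unfolded protein response and of secretory cells, read 11.58, 11.52 and 11.82 among controls against 11.12, 11.56 and 11.24 in the deficient animals. Like Duoxa2, it was highest in control replicate 3 and lowest in deficient replicate 1. The log2 differences of the 3 genes between the groups were −0.33, −0.42 and −0.32, and none of the 3 passed (limma, adjusted p = 0.323, 0.271 and 0.362). The 3 were picked for likeness to Duoxa2 over these same 6 arrays. The shared order of arrays and the shared sign follow from that choice and are not a separate result. Duoxa2 was the only member whose 6 arrays spanned more than 1 log2 unit, at 1.13, and the nearest profiles of the others were not sought.

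**Figure D2:**
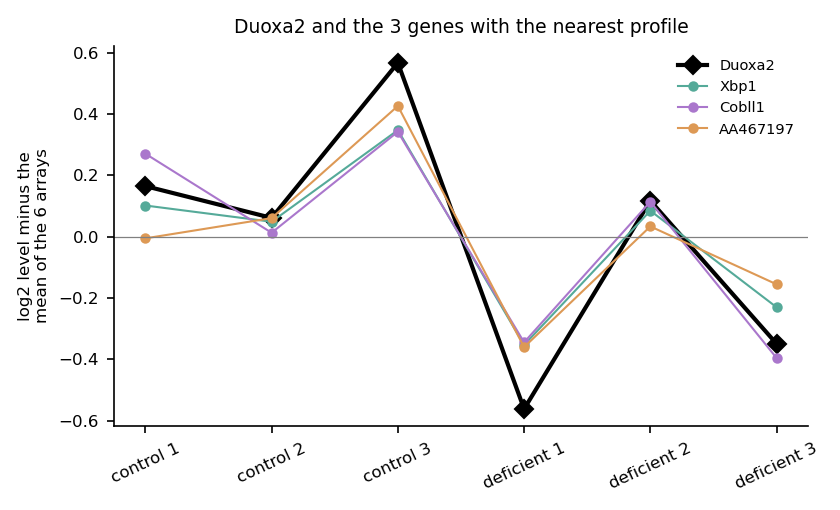
Log2 level of Duoxa2, Xbp1, Cobll1 and AA467197 on each array, minus each gene's mean over the 6 arrays; lines only link the points of a gene, since replicates have no order. All 4 genes are highest in control replicate 3 and low in deficient replicates 1 and 3, with deficient replicate 2 near the mean, and the range of Duoxa2 (1.13) is the widest. Xbp1, Cobll1 and AA467197 were picked for likeness to Duoxa2 on these same arrays.

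Nos2, the inducible synthase of nitric oxide, read 5.22, 5.31 and 5.39 among controls against 5.55, 5.79 and 5.48 in the deficient animals. Every deficient array lay above every control, with deficient replicate 3 closest to the controls. The means were 5.31 ± 0.08 and 5.61 ± 0.16 (SD, n = 3). Deficient minus control was 0.30 on the log2 scale (SE 0.13, 95% confidence limits 0.0096 and 0.59), or 1.23-fold higher, and missed the threshold (limma, adjusted p = 0.286). The upper end of the interval corresponds to a 1.51-fold rise on the scale of the array, and RMA can understate changes of dim genes.

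Around Nos2, the 14 other listed genes of nitric oxide and arginine metabolism were measured. Gch1 rose, 0 fell and 13 did not pass (6 of the 14 had an unadjusted p under 0.05). The median log2 difference was 0.17. Gch1, the first enzyme in the synthesis of tetrahydrobiopterin, the cofactor of nitric oxide synthases, read 9.10, 9.06 and 9.88 among controls against 10.52, 10.65 and 10.73 in the deficient animals. All deficient arrays lay above all controls, and control replicate 3 was nearest to them. The log2 difference was 1.28 (SE 0.22), or 2.43-fold, and passed narrowly (limma, adjusted p = 0.0490). Its second probe set stood at 0.93, and neither passed when tested as probe sets (limma, adjusted p = 0.0612 and 0.0911). Without 1 array the call was kept in the absence of control replicate 3 (adjusted p = 0.0154) and lost in the absence of any of the other 5 (0.0564 to 0.202). It was lost also with the Gapdh difference as a covariate, at 0.84 (adjusted p = 0.20), without control replicates 1 and 2, at 0.75 (adjusted p = 0.537), with another quantile normalisation, at 1.25 (adjusted p = 0.0518), and with the mean over probe sets, at 1.11 (adjusted p = 0.0512).

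What oxidases release is cleared by peroxidases and their partners. Of 20 such genes, 17 were measured, of which 0 rose, 0 fell and 17 did not pass (3 at an unadjusted p under 0.05), with a median log2 difference of 0.16. Srxn1, which repairs overoxidised peroxiredoxins, read 10.08, 10.12 and 10.16 among controls against 10.58, 10.68 and 10.58 in the deficient animals. Its groups did not overlap (log2 0.49, SE 0.10, limma adjusted p = 0.0879). Gpx2, the glutathione peroxidase of the gut epithelium, read 12.39, 12.15 and 12.28 among controls against 11.88, 11.77 and 11.97 in the deficient animals. Its groups did not overlap either, in the opposite direction (log2 −0.40, SE 0.12, limma adjusted p = 0.170). Neither passed.

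Lcn2, the siderophore-binding lipocalin widely used as a marker of gut inflammation, read 4.57, 4.13 and 4.72 among controls against 4.27, 4.41 and 4.38 in the deficient animals. All 3 deficient arrays lay inside the control range, and all 6 values lay below the array medians. The means were 4.47 ± 0.30 and 4.35 ± 0.07 (SD, n = 3), with a log2 difference of −0.12 (SE 0.16, limma adjusted p = 0.747). The 95% interval ran from −0.50 to 0.25, so that on the scale of the array a rise above 1.19-fold lay outside it. With no detection calls in the table, Lcn2 cannot be called present or absent. Without control replicate 3 the difference was 0.00045 and without control replicate 2 it was −0.29. It was −0.40 with the Gapdh covariate and −0.37 without control replicates 1 and 2 (limma, adjusted p = 0.527 and 0.708).

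Of 12 other listed genes of siderophore binding and iron withholding, 10 were measured, and 0 rose, 0 fell and 10 did not pass (1 at an unadjusted p under 0.05). The median log2 difference was 0.20. Slc11a1, the iron and manganese exporter of phagocyte vesicles, had the smallest p, with 4.61, 4.11 and 4.46 among controls against 5.04, 5.26 and 5.26 in the deficient animals. The groups did not overlap (log2 0.79, SE 0.15, limma adjusted p = 0.0714). Tfrc, the transferrin receptor, followed at −0.42 (adjusted p = 0.326), with its other 2 probe sets at −0.19 and −0.27. Slc22a17, which encodes a receptor for lipocalin-2, stood at −0.019 (adjusted p = 0.957).

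Pglyrp1, a secreted peptidoglycan-binding protein also stored in neutrophil granules, read 9.29, 9.10 and 8.94 among controls against 8.67, 8.72 and 8.65 in the deficient animals. All deficient arrays lay below all controls. The means were 9.11 ± 0.17 and 8.68 ± 0.04 (SD, n = 3), a 1.35-fold lower level. Deficient minus control was −0.43 on the log2 scale (SE 0.12, 95% confidence limits −0.71 and −0.14), which missed the threshold (limma, adjusted p = 0.163). It passed with arrays weighted by their estimated quality, at −0.50 (adjusted p = 0.0340), a setting under which 1406 genes passed instead of 141. The 2 controls farthest from the deficient arrays were replicates 1 and 2, those with the higher Gapdh difference. Without both the difference was −0.26. The part of RNA degradation in the Pglyrp1 values was not tested, and on these arrays it cannot be fully told apart from the group.

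Of 17 other listed sensors of peptidoglycan and other microbial products, 13 were measured, with 0 that rose, 0 that fell and 13 that did not pass (5 at an unadjusted p under 0.05). The median log2 difference was 0.04. Tlr4, the receptor for lipopolysaccharide, read 3.78, 3.23 and 3.74 among controls against 4.36, 4.41 and 4.33 in the deficient animals (log2 0.78, limma adjusted p = 0.0779). These values lie below the array medians, and the other 3 probe sets of Tlr4 stood at 0.52, −0.14 and 0.47. Tlr1 read 6.11, 6.17 and 6.00 among controls against 5.38, 5.77 and 5.47 in the deficient animals (log2 −0.56, adjusted p = 0.112). For both genes the groups did not overlap, in opposite directions. Pglyrp2, the other PGLYRP gene measured, stood at −0.18 (adjusted p = 0.727).

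Slpi, which encodes an inhibitor of neutrophil elastase, read 5.42, 4.88 and 5.86 among controls against 5.42, 5.42 and 5.40 in the deficient animals. The controls lay on both sides of the deficient arrays. The means were 5.39 ± 0.49 and 5.41 ± 0.01 (SD, n = 3), with a log2 difference of 0.024 (SE 0.23, 95% interval −0.50 to 0.54, limma adjusted p = 0.970). It was −0.23 without control replicate 2 and 0.26 without control replicate 3. It was −0.45 with the Gapdh covariate and −0.45 without control replicates 1 and 2. The deposited value was exactly the same on 3 of the 6 arrays, control replicate 1 and deficient replicates 1 and 2. Of 45037 probe sets, 5.6% had such a value repeated on 3 or more arrays, so the narrow spread of the deficient arrays is not a measure of precision. Of 10 other listed protease inhibitors and neutrophil proteases, 9 were measured, of which 0 rose, Spink4 fell and 8 did not pass. Spink4, a protease inhibitor of goblet cells, read 12.76, 12.41 and 12.71 among controls against 11.59, 11.32 and 11.59 in the deficient animals (log2 −1.13, SE 0.14, limma adjusted p = 0.0184), with no overlap. Without 1 array the call was lost in the absence of control replicates 1 or 3 or deficient replicates 2 or 3 (adjusted p = 0.0981, 0.0639, 0.113 and 0.0822). It was lost also with the Gapdh covariate, at −1.24 (adjusted p = 0.0965), and without control replicates 1 and 2, at −1.21 (adjusted p = 0.393).

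Pigr, the polymeric immunoglobulin receptor, was measured by 2 probe sets. The brighter of them, used for the gene, read 12.94, 13.34 and 13.02 among controls against 12.89, 13.07 and 12.93 in the deficient animals, and the second read 12.79, 13.07 and 12.78 among controls against 12.70, 12.68 and 12.70 in the deficient animals. Both were highest in control replicate 2, and the groups overlapped for the first and not for the second. The log2 differences were −0.13 (SE 0.14, limma adjusted p = 0.669 over genes) and −0.18 (SE 0.12, limma adjusted p = 0.522 over probe sets). The intervals ran from −0.45 to 0.18 and from −0.46 to 0.10, so a fall of more than 1.38-fold lay outside both. Without control replicate 2 the differences were −0.015 and −0.086.

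Pigr was set beside the genes of its ligand and of the signals known to act on it, a list of 12 without Pigr, of which 11 were measured. Of these, 0 rose, 0 fell and 11 did not pass (3 at an unadjusted p under 0.05), and the median log2 difference was −0.04. Ccl28, a chemokine that draws IgA plasma cells, read 8.47, 8.86 and 8.57 among controls against 8.31, 8.40 and 7.94 in the deficient animals. Its groups did not overlap (log2 −0.42, SE 0.16, limma adjusted p = 0.257), but its other 2 probe sets stood at 0.0056 and −0.26, with overlap. Tnfrsf1a, the main receptor of TNF, stood at 0.29 (SE 0.12, adjusted p = 0.279), also with no overlap. Igha, the constant part of IgA, read 10.22, 11.82 and 11.31 among controls against 9.78, 9.96 and 10.87 in the deficient animals. Its partner Jchain read 7.93, 8.79 and 9.41 among controls against 6.97, 7.42 and 8.76 in the deficient animals. Both overlapped between the groups and did not pass, at −0.91 and −0.99 (limma, adjusted p = 0.329 and 0.365). Both are transcripts of plasma cells.

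**Figure D3:**
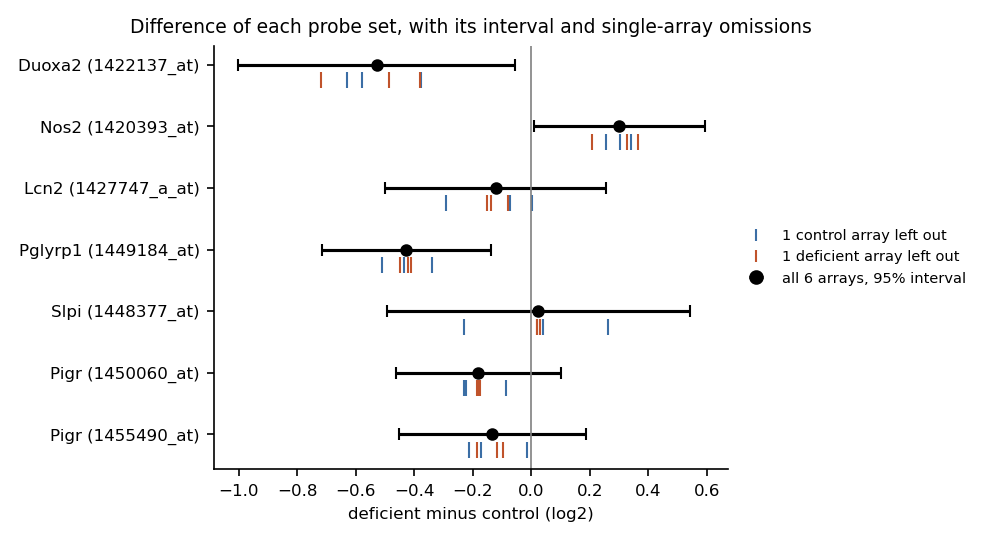
Log2 difference, deficient minus control, of each probe set with its 95% interval (black, all 6 arrays), and the difference with 1 control array (blue ticks) or 1 deficient array (orange ticks) left out. The intervals of Duoxa2 and Pglyrp1 lie below 0 and that of Nos2 above it before adjustment; leaving out single controls moves Slpi from −0.23 to 0.26.

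The signals that induce several of these genes were followed too. Of 15 listed genes of interleukin-17 and interleukin-22 signalling, 12 were measured, with 0 that rose, 0 that fell and 12 that did not pass (2 at an unadjusted p under 0.05), and a median log2 difference of 0.047. Il10rb and Il22ra1, the 2 chains of the interleukin-22 receptor, had the smallest p. Il22ra1 read 8.30, 8.65 and 8.44 among controls against 8.82, 9.16 and 8.89 in the deficient animals, and Il10rb 9.83, 9.66 and 9.96 against 10.25, 10.22 and 10.21. Neither overlapped between the groups, and their log2 differences were 0.49 and 0.41 (limma, adjusted p = 0.166 and 0.163). A second Il10rb probe set stood at −0.12.

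Of 21 other epithelial genes that interleukin-17, interleukin-22 or microbes are known to induce, 20 were measured, and 0 rose, 0 fell and 20 did not pass (8 at an unadjusted p under 0.05). The median log2 difference was −0.14, and 13 of 20 were negative. Retnlb, the goblet cell protein RELM-beta, read 6.72, 4.34 and 8.02 among controls against 3.45, 3.81 and 3.58 in the deficient animals. The groups did not overlap, but the controls ranged widely (log2 −2.74, SE 0.77, limma adjusted p = 0.155). Tgm2, a transglutaminase, stood at −0.65 (adjusted p = 0.176), with 4 of its other 5 probe sets at −0.71 to −0.32 and the fifth at 0.29. Saa1, an acute phase protein, read 11.17, 8.80 and 11.20 among controls against 7.11, 9.45 and 6.10 in the deficient animals (log2 −2.84, adjusted p = 0.189). In the controls Retnlb, Saa1, Lcn2 and Slpi were all lowest in replicate 2 and highest in replicate 3. Others of the list were not, such as Nfkbiz, Zc3h12a and Cxcl2, all highest in control replicate 2. Of the other members, Duoxa2 had the same order. Pigr was highest in control replicate 2, Pglyrp1 lowest in control replicate 3 and Nos2 lowest in control replicate 1. The genes compared for this order were picked with their values seen. The share with that order, in the list or over all genes, is not given, so the order is not a result about these genes.

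**Figure D4:**
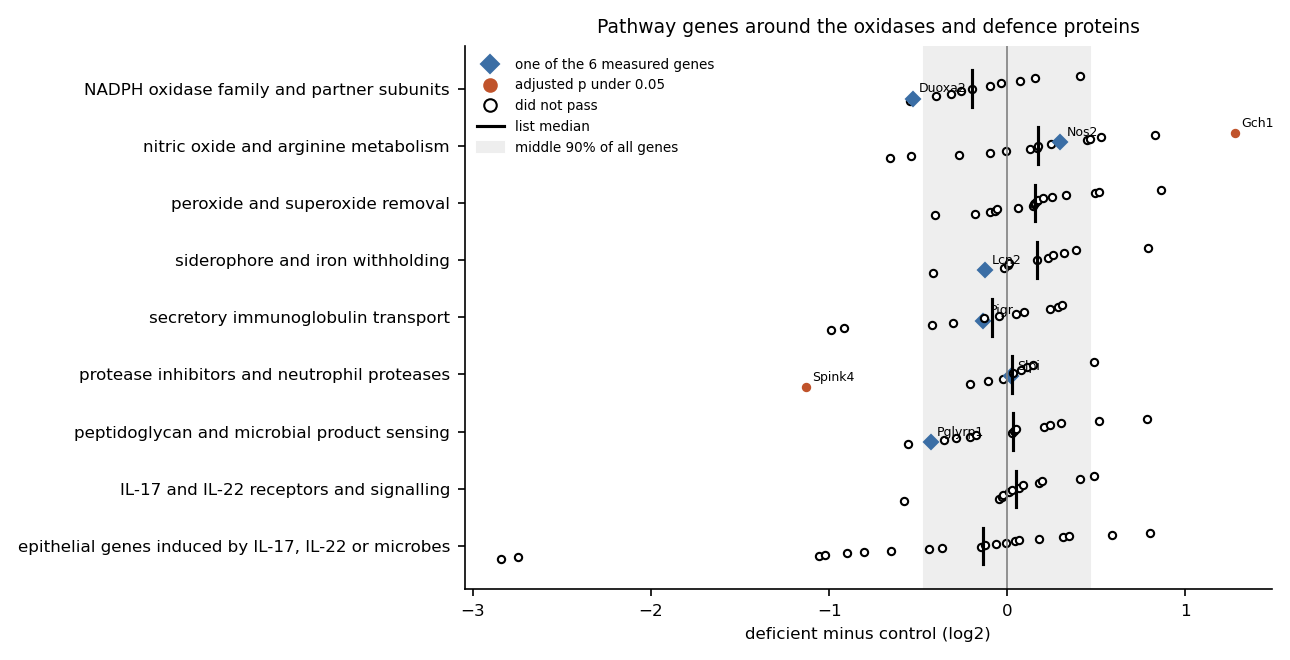
Log2 difference, deficient minus control, of every measured gene in the 9 pathway lists; blue diamonds are the 6 measured genes of the group, filled orange circles passed at an adjusted p under 0.05, open circles did not, black bars are list medians with the diamonds included and the grey band holds the middle 90% of all genes (−0.47 to 0.47). Only Gch1 and Spink4 are filled, and of the diamonds only Duoxa2 lies outside the band.

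Other cell types that express these genes were read from their markers. Goblet cell genes were lower, with 5 of 10 that fell (Spink4, Clca1, Ern2, Atoh1 and Muc2), 0 that rose and a median log2 difference of −0.82, and Paneth cell genes likewise, with 6 of 7 measured that fell (Lyz1, Mmp7, Ang4, Pla2g2a, Itln1 and Sox9), 0 that rose and a median of −1.82. Mean levels over these lists were 11.2 to 11.4 among controls against 10.5 to 10.6 in the deficient animals for goblet cells, and 10.3 to 10.7 against 8.74 to 9.02 for Paneth cells. The part of these lists in the lower values of Duoxa2 and Pglyrp1 was not tested. Without single arrays, the calls of Lyz1, Ang4 and Itln1 among the Paneth cell genes were kept, while each goblet cell call and those of Mmp7, Pla2g2a and Sox9 were lost without at least 1 array. With the Gapdh covariate all 5 goblet cell calls were lost (Spink4, Clca1, Ern2, Atoh1 and Muc2 at log2 differences of −1.24, −1.02, −0.87, −0.93 and −0.75, adjusted p = 0.0965 to 0.292), as was that of Sox9 (−0.83, adjusted p = 0.20), and the other 5 Paneth cell calls were kept. That fit is a weaker test than the main one, since the covariate overlaps with the group. The differences of Spink4 and Atoh1 (−1.13 and −0.84 in the main fit) grew under it, and those of Clca1, Ern2, Muc2 and Sox9 shrank. No goblet or Paneth cell call was kept without control replicates 1 and 2, where 1 control leaves a weak test. None of these genes changed sign under any alternative, that one included. Lyz1 ran from −1.38 to −1.15, Ang4 from −3.34 to −2.76 and Itln1 from −2.38 to −2.04. Mmp7 ran from −2.31 to −1.61, Pla2g2a from −2.34 to −1.68 and Sox9 from −0.91 to −0.70. The Sox9 call was lost too with the replicate block (adjusted p = 0.0541) and with the mean over probe sets (−0.70, adjusted p = 0.0550). Of 9 enterocyte markers Rbp2 rose and 8 did not pass (median 0.20). The mean level of this list was 12.57 to 12.73 among controls against 12.92 to 12.96 in the deficient animals, higher on every deficient array. The Rbp2 call was kept only without deficient replicate 1 and lost without any other array (adjusted p = 0.0720 to 0.158). It was lost also with the replicate block (adjusted p = 0.0505), the Gapdh covariate (0.81, adjusted p = 0.241) and without control replicates 1 and 2 (0.86, adjusted p = 0.570).

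Neutrophils, which hold much Lcn2, Slpi and Pglyrp1, were read from 13 of 15 markers. Of these, 0 passed (2 at an unadjusted p under 0.05), the median log2 difference was 0.03, and the mean level was 4.18 to 4.37 among controls against 4.15 to 4.57 in the deficient animals, below the array medians. Deficient replicate 1 was highest in S100a8 (4.62, against 2.97 to 3.55 on the other arrays), S100a9 (5.51, against 3.35 to 3.62) and Ltf (5.91, against 4.802 to 5.50). The granule genes Ngp, Camp and Elane differed by 0.05, 0.03 and 0.03 between the groups. Cd177 and Itgam, the 2 at an unadjusted p under 0.05, were lower in the deficient animals, at −0.95 and −0.32 (limma, adjusted p = 0.147 and 0.252). Their groups did not overlap. Cd177 is counted again among the colon epithelium markers below, so its lower level cannot be assigned to neutrophils. Of the 13 markers, 8 had a positive and 5 a negative difference. The part of neutrophils in the values of Lcn2, Slpi and Pglyrp1 was not tested. Of 13 macrophage markers, a cell type that can express Nos2 and Slc11a1, Mrc1 rose (log2 1.06, limma adjusted p = 0.0172), 12 did not pass, and the median was −0.06. The call was kept without control replicate 3 or deficient replicate 1, and lost without any of the other 4 arrays (adjusted p = 0.0793 to 0.107). It was lost also with the Gapdh covariate, at 0.92 (adjusted p = 0.136), and without control replicates 1 and 2, at 0.86 (adjusted p = 0.393). The macrophage mean was 4.91 to 5.53 among controls against 5.17 to 5.43 in the deficient animals.

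Of 11 measured B and plasma cell markers, 0 passed (2 at an unadjusted p under 0.05), with a median of −0.35 and means of 6.90 to 7.76 among controls against 6.58 to 6.93 in the deficient animals. Of 10 markers of T cells and intraepithelial lymphocytes, 0 passed (0 at an unadjusted p under 0.05), as did 0 of 11 for fibroblasts and smooth muscle (2) and 0 of 9 for endothelium (0). Colon epithelium, where Nox1 is known to be most abundant, was read from 10 of 11 markers, of which 0 passed (5 at an unadjusted p under 0.05), with a median of −0.37. These markers differed in direction, with 3 positive and 7 negative, from −0.95 (Cd177) to 1.13 (Hoxb13). Single arrays differed too. Car1 read 9.84 in control replicate 1 and 7.39 in deficient replicate 1, against 4.05 to 5.53 on the others. Nox1 itself was not measured.

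**Figure D5:**
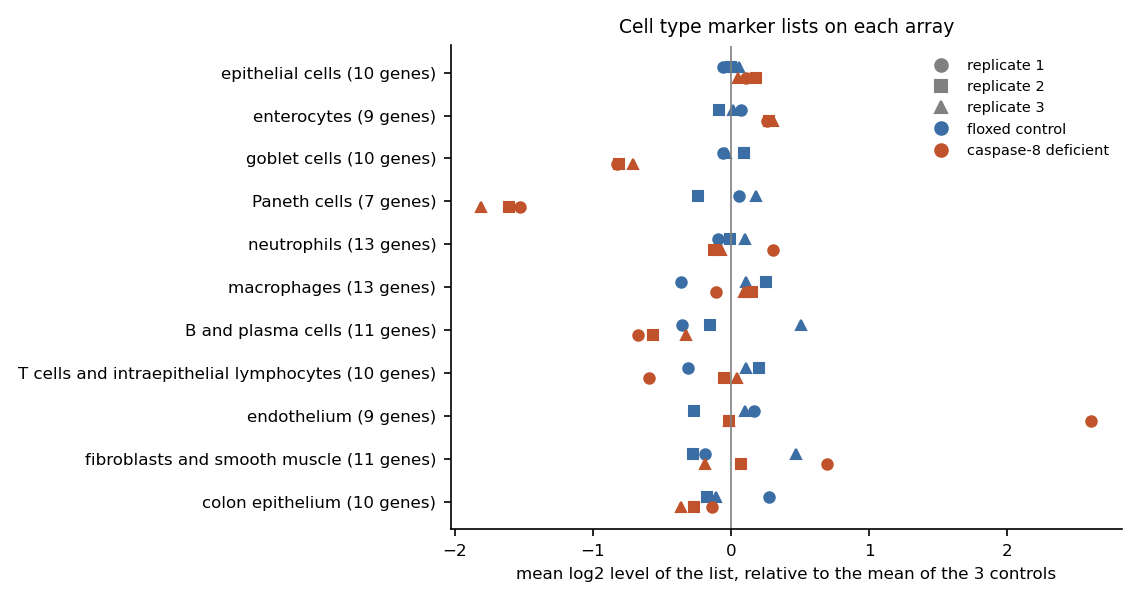
Mean log2 level of each cell type marker list on each array, relative to the mean of the 3 controls (blue, floxed control; orange, caspase-8 deficient; a symbol for each replicate number). Goblet and Paneth cell lists lie lower in all 3 deficient arrays, the enterocyte list lies higher in all 3, and deficient replicate 1 stands at 2.61 for endothelium.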

How the data were processed

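RNA of intestinal epithelial cells was profiled in 3 floxed control and 3 caspase-8 deficient mice on a 3′ Affymetrix array. The authors deposited log2 expression values whose summary method, per the submitters' processing notes, was RMA (a robust average over the probes of a set). The RMA version is not given in the sources used here. RMA corrects background, brings arrays to a common distribution and pulls dim signals towards a floor. The table holds no detection calls. Precision is limited by having 3 arrays a group.

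Of 45101 probe sets, 64 are controls, 34945 carry 1 gene symbol in the platform annotation (it may be out of date), 932 with several and 9160 with none; 34741 of the single-gene probe sets were found in the RefSeq gene table (GRCm38.p6), and 0 were renamed. A gene was represented by its brightest probe set on average, giving 18193 genes. Deficient minus control was tested with limma 3.58.1 (lmFit and eBayes with a group term alone, two-sided) under R 4.3.3, with Benjamini-Hochberg adjustment and a threshold of 0.05, over genes and, separately, over single-gene probe sets. The steps were tested on simulated data. The labels call the replicates biological, and the p-values measure the spread between them. Same-numbered replicates were not paired: the correlation of their deviations from the group means was 0.0774, 0.105 and −0.00736. Python 3.11.15, pandas 2.3.3, numpy 2.4.6 and matplotlib 3.10.9 served for tables and plots.

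The members and the 20 gene lists were chosen with earlier results of these data known. Named are the members, Casp8, every gene of a list that passed, otherwise the 2 with the smallest p of a pathway list, and the 3 profiles nearest to a member that spans over 1 log2 unit. Duoxa1, Noxo1, Cyba, Slc22a17, Pglyrp2, Igha, Jchain, Saa1, S100a8, S100a9, Ltf, Ngp, Camp and Elane were named after their values were seen. So were Cd177, Itgam, Nfkbiz, Zc3h12a, Cxcl2, Car1 and Hoxb13.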

Additional observations from a re-analysis of the deposited data

How the results depend on the processing

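The alternatives were a replicate block, a filter on dim genes, a robust fit with a variance trend, weights per array, centring on the median, another quantile normalisation, the Gapdh difference as a covariate, leaving out control replicates 1 and 2 or each array, the mean over probe sets, dropping probe sets that may cross-hybridise, and adjustment over all non-control probe sets. With 1 control left, that array is assumed to vary like the others. No member passed under any of them except Pglyrp1 with array weights, which made the count of members that passed 1 over genes and 1 over probe sets (adjusted p = 0.0340 and 0.0499). With the replicate block, 113 genes and 108 probe sets passed and no call of a member changed; the labels share only a number. The dim filter leaves out Nos2, Lcn2 and Slpi at the gene level and Lcn2 as a probe set, and Lcn2 has no probe set free of possible cross-hybridisation.

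The count of genes that passed, 141, became 298 with the dim filter, 252 with the variance trend, 1406 with array weights, 36 with the Gapdh covariate, 5 without control replicates 1 and 2, and 18 to 251 without single arrays. For probe sets, 139 became 362, 250, 1631, 23, 3 and 19 to 291. Duoxa2, Nos2 and Pglyrp1 kept their direction under every alternative that could be run, at −0.83 to −0.31, 0.21 to 0.43 and −0.51 to −0.26. Slpi changed sign with array weights (−0.031 over genes, −0.033 over probe sets), the Gapdh covariate (−0.45), without control replicates 1 and 2 (−0.45), and without single arrays (−0.23 to 0.26). Pigr changed sign with array weights (0.018 over genes and 0.0064 over probe sets), and Lcn2 without single arrays (−0.29 to 0.00045). The cause was not tested. Of 319 list medians recomputed, 14 moved by more than the spread between arrays.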
